A study of Homo sapiens with 6 samples.

Results

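Kinesins are motor proteins that burn ATP to move along microtubules or to take their ends apart. The kinesin genes of the array were those whose symbol is KIF or KIFC followed by a digit. They numbered 42 genes with 64 probes, of 31334 gene symbols and 47231 probes on the array. Mitotic kinesins build the spindle, move chromosomes and complete cytokinesis, and their genes are known to be transcribed mainly in G2 and M phase. Transport kinesins carry vesicles, organelles and protein complexes along microtubules at all times, and several work mainly in neurons. By known role, 14 of the genes were mitotic, 17 were transport motors, 6 act mainly in cilia or in signalling at the cilium, and 5 were placed in none of these.

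The cells were U2OS, a human osteosarcoma line. The 3 control samples carried a control shRNA, although their genotype label reads parental, and the 3 other samples carried a stable knockdown of TUSC4, the older symbol of NPRL2. Its protein belongs to GATOR1, which holds mTORC1 signalling down during amino acid shortage. Total RNA was measured on 6 Illumina bead arrays of 1 chip with each group at neighbouring positions, so chip position and group cannot be told apart. Whether the knockdown was 1 clone, 1 pool or several, and whether the 3 samples of a group were separate cultures, is not given in the labels, so the p-values cover only differences among these 6 samples and may reflect technical spread. In such bulk samples, fewer cells in a phase and less RNA per cell cannot be told apart.

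TUSC4 itself had signals of 1105, 943 and 977 in the control samples and of 366, 345 and 481 in the knockdown samples. The knockdown samples were all below the controls, by a log2 fold change of -1.18 ± 0.10 (SE, with a limma adjusted p of 9.16e-07). Of 10 osteoblast and mesenchymal markers 8 could be tested, with 5 above background on all 6 arrays and a summed signal of 17107 to 18110 in the control and 15250 to 17711 in the knockdown samples. Among them RUNX2 and COL1A1 had log2 fold changes of -0.68 and -0.96, and SPP1 had 0.98. At a limma adjusted p under 0.05, 1 of the 8 rose and 2 fell (37.5%, against 26.9% of all genes). Where a probe had to be above background on all 6 arrays, 5 were tested, with 1 higher and 1 lower. Of 6 epithelial markers EPCAM, KRT8 and KRT18 could be tested, with a summed signal of 1386 to 1628 in the control and 912 to 1001 in the knockdown samples and the other 3 above background on no array or not on it. KRT8 had -0.69 (limma adjusted p = 0.000507), KRT18 -0.31 (0.0393) and EPCAM 0.03. The KRT18 call was lost with an offset of 16, with the mean of its probes and in 5 of the 6 fits that left out 1 array, and held without TUSC4 replicate 3. Of 6 blood cell markers 1 could be tested, CD14, at 130 to 133 and 115 to 144, and 4 were above background on no array. The part of these shifts in the kinesin results was not tested.

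The promoters of the kinesin genes were searched for short strings known from genes of G2 and M phase. RefSeq (GRCh38.p14) gave 300 bases, from 250 before to 50 after the start, for 34 of the 42 genes, in 43 promoters. KIF13B, KIF19, KIF21B, KIF26B, KIF27, KIF5A, KIFC2 and KIFC3 had no entry. The letters searched on both strands were TTTGAA, the CHR element of cell cycle genes, its variant TTCGAA, and CCAAT, the box bound by NF-Y. CHR elements are known to bind the DREAM complex and, with its MuvB core, B-MYB and FOXM1. The 5 promoters are printed from 5′ to 3′ on the gene's strand with matches to these letters, on either strand, in capitals. The mitotic genes KIF11 (chr10:92592880-92593179, plus strand), KIF20A (chr5:138178862-138179161, plus strand) and KIF14 (chr1:200620702-200621001, minus strand) are shown because they passed the test below. KIF23 (chr15:69414099-69414398, plus strand) is shown as a mitotic gene that did not, and KIF5C (chr2:148874977-148875276, plus strand, the first of its 2 promoters) as a transport gene that did.
KIF11: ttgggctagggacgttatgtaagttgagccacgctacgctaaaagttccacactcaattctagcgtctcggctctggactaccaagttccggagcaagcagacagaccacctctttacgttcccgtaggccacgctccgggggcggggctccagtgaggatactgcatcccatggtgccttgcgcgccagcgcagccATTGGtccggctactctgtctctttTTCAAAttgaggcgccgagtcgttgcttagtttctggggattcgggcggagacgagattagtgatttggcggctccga
KIF20A: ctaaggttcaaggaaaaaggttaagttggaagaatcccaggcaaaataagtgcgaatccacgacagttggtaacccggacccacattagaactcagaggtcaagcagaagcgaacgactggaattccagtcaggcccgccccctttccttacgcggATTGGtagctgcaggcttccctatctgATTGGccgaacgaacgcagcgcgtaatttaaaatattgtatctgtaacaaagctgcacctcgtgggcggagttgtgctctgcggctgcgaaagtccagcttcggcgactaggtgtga
KIF14: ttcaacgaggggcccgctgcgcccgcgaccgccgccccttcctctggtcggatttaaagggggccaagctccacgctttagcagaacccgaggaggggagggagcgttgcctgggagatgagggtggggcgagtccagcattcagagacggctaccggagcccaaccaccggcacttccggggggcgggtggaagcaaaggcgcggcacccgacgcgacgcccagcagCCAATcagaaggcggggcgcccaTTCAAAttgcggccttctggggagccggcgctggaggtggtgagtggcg
KIF23: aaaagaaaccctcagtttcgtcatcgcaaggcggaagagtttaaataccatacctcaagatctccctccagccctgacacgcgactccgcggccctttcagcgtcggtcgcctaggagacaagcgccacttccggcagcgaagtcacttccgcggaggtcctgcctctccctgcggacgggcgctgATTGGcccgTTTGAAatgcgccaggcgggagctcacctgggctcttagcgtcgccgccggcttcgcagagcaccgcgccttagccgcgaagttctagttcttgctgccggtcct
KIF5C: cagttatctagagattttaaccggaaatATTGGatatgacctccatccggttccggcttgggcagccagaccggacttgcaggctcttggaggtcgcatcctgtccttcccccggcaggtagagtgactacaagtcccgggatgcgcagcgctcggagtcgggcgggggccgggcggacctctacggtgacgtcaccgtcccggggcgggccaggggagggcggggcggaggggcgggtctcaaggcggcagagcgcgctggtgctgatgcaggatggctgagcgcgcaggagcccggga

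In KIF11 the CCAAT match began 53 bases before the start and the CHR match 28 bases before it. KIF14 had the same pair at 22 bases before and at base 2 after the start. KIF20A held 2 CCAAT matches, 94 and 67 bases before the start, and neither CHR letter string. KIF23 held a CCAAT match 64 and a CHR match 55 bases before the start, and KIF5C a lone CCAAT match 222 bases before it. The 2 KIF22 promoters overlap, and their variant matches, 27 and 244 bases before the starts, are 1 site counted in both. Among the 11 tested mitotic genes, with 12 promoters, 10 promoters (83.3%) of 9 genes held a CHR element or its variant. Of the 15 promoters of 10 tested transport genes 1 did (6.67%), that of KIF5B, and of all 35116 promoters 16.4% did. A CCAAT box stood in 9 of the 12 mitotic promoters (75%), 5 of the 15 transport promoters (33.3%) and 34.6% of all promoters. The pair together stood in 8 mitotic promoters (66.7%), 1 transport promoter (6.67%) and 6.38% of all promoters. Of the other strings searched, the E2F strings TTGGCGC or TTCCCGC or TTCGCGC (the further string GCGGGAA being the reverse complement of the second) matched 2 mitotic promoters (16.7%), 2 transport promoters (13.3%) and 11% of all. The forkhead string TGTTTAC matched none of the promoters of these mitotic and transport genes and 3.42% of all. The matches are letter strings and not shown binding sites.

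**Figure D1:**
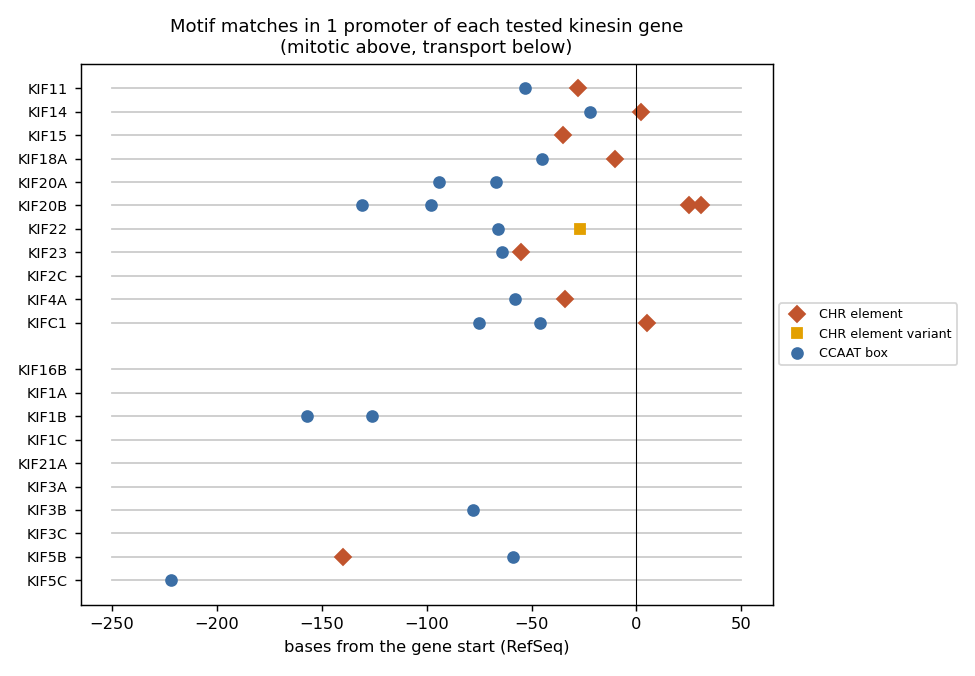
Matches to the CHR element (diamonds), its variant (square) and the CCAAT box (circles) in 1 promoter of each tested mitotic (11 genes) and transport (10 genes) kinesin, by distance in bases from the RefSeq start. CCAAT matches stand 22 to 131 bases before the start in the mitotic genes that hold one, and the only CHR match drawn for a transport gene is that of KIF5B, 140 bases before the start.

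Of the 42 genes, 27 had a probe above the estimated background on at least 3 of the 6 arrays and were tested, with 33 probes kept in all. The 15 others were not measurable here, with no probe above background on more than 2 arrays. They were the mitotic genes KIF18B, KIF2B and KIF4B, the transport genes KIF13A, KIF17, KIF21B, KIF5A and KIFC3, the cilia genes KIF6, KIF9 and KIF19, and KIF12, KIF25, KIF26A and KIF26B. KIF5A, KIF17 and KIF21B are known mainly from neurons, and KIF6, KIF9 and KIF19 from motile cilia. KIF4B is a near-identical copy of KIF4A, so the copy behind their probes is uncertain.

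After TUSC4 knockdown, 7 of the 27 tested kinesin genes (25.9%) changed, 3 higher and 4 lower, at a Benjamini-Hochberg adjusted p under 0.05 over all 15300 genes tested. Over all genes 26.9% changed, 13.3% higher and 13.6% lower, so the kinesins changed about as often as any gene. Of the 11 tested mitotic genes KIF11 and KIF20A fell and KIF14 rose. Of the 12 tested transport genes KIF5C and KIF1A fell and KIF13B and KIFC2 rose, with KIF1A kept only through its control arrays. None of the 3 tested cilia genes passed, nor did KIF2A, the microtubule depolymerase of spindle poles and of neurons. The median log2 fold change was 0.03 for the mitotic genes, -0.04 for the transport genes and 0.00 for all genes, and the differences between these medians were not tested. The 2 groups of samples did not overlap for 11 kinesin genes, 4 higher and 7 lower, of which 3 were mitotic and 7 transport genes. Over all genes 40.5% did not overlap, 19.9% higher and 20.5% lower. Tested singly, 3 of the 33 kept kinesin probes rose and 5 fell, where of all kept probes 24.3% changed, 11.8% higher and 12.5% lower.

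These directions depend on how the arrays were scaled. Median scaling in place of quantile normalization, which put the all-gene median at -0.12, gave 0 kinesin genes higher and 10 lower of 27, where of all genes 4.05% rose and 22.6% fell. It aligned each array's median over all 47231 probes. Only 20378 to 21485 of them per array were above background, so the aligned value lay among probes not above it. No normalization gave the same kinesin counts with the all-gene median at -0.16, where of all genes 2.51% rose and 23.0% fell. The median was then -0.20 for mitotic and -0.27 for transport genes with median scaling. KIF11, KIF20A and KIF5C were lower past the threshold under every scaling tried. So was KIF1A, but its probe met the background filter through the control arrays alone, so its calls add no support. KIF14, KIF13B and KIFC2 kept a positive sign and missed the threshold under those 2 scalings. Rises and falls given here therefore hold under quantile normalization, which gives every array the same distribution of values. They are relative to probes of like brightness and not to a typical gene.

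**Figure D2:**
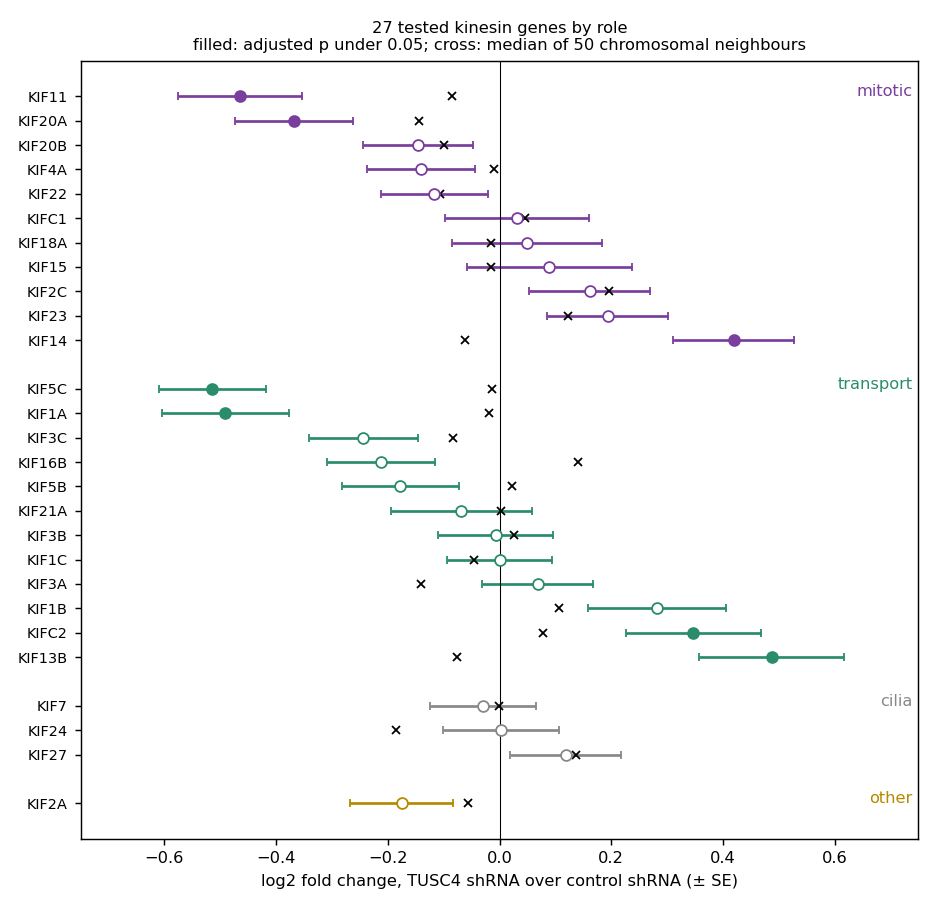
Log2 fold change of the 27 tested kinesin genes with the standard error, grouped by role, with filled points for genes past the threshold and a cross at the median of the 50 nearest measured genes on the chromosome. Both the mitotic and the transport group spread to either side of 0, from -0.47 for KIF11 to 0.42 for KIF14 and from -0.51 for KIF5C to 0.49 for KIF13B.

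KIF11, also known as Eg5, is the motor that slides antiparallel microtubules and pushes the spindle poles apart. Its normalized log2 intensities were 9.60, 9.30 and 9.59 with the control shRNA and 8.91, 9.18 and 9.0 with the TUSC4 shRNA. Every knockdown sample lay below every control sample. KIF11 fell by a log2 fold change of -0.47 ± 0.11 (SE, with a limma adjusted p of 0.00550). Its mean signal before normalization was 848 ± 159 (SD, n = 3) in the control and 517 ± 44.5 (SD, n = 3) in the knockdown group. The other KIF11 probe gave 9.03, 8.88 and 9.01 against 8.46, 8.34 and 8.39, again without overlap, and a log2 fold change of -0.58 when every probe was tested (limma adjusted p = 0.000419). KIF15, the kinesin that can stand in for KIF11 in keeping the spindle bipolar, had 0.09 ± 0.15 (limma adjusted p = 0.709).

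KIF20A, also called MKLP2, carries the chromosomal passenger complex with Aurora B to the central spindle. Its log2 intensities were 10.57, 10.30 and 10.38 in the control samples and 10.10, 10.14 and 9.91 in the knockdown samples. The groups did not overlap, and KIF20A fell, with a log2 value of -0.37 ± 0.11 (SE, limma adjusted p = 0.0163). The call was lost without control replicate 1 (-0.29, limma adjusted p = 0.0982) and without TUSC4 replicate 3 (-0.30, limma adjusted p = 0.0505). The 50 measured genes nearest to KIF20A on chromosome 5 had a median of -0.14, and 15 of them fell and 4 rose. How far they account for its fall was not tested.

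KIF14, a motor of the midbody in cytokinesis, moved the other way. Its log2 intensities were 9.12, 8.74 and 9.0 in the control samples and 9.33, 9.34 and 9.45 in the knockdown samples. The groups did not overlap after normalization, and KIF14 rose by 0.42 ± 0.11 on the log2 scale (SE, limma adjusted p = 0.00903). Before normalization its signals did overlap, at 737, 484 and 582 against 611, 579 and 750. With median scaling KIF14 had 0.18 (limma adjusted p = 0.419), without normalization 0.14 (0.580), and without control replicate 2 it had 0.31 (0.0521).

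The other 8 tested mitotic kinesins did not pass. The chromokinesins, which push chromosome arms toward the metaphase plate, had -0.14 ± 0.10 for KIF4A and -0.12 ± 0.10 for KIF22. KIF20B, a cytokinesis motor, had -0.15 ± 0.10. With median scaling and without normalization KIF4A, KIF22 and KIF20B did pass as lower, by up to -0.41, -0.38 and -0.43. KIF2C (MCAK), the depolymerase of centromeres, had 0.16 ± 0.11 and KIF18A, which damps chromosome movement at metaphase, 0.05 ± 0.13. KIFC1 (HSET), the minus-end motor that focuses spindle poles, had 0.03 ± 0.13. KIF23 (MKLP1), the motor subunit of centralspindlin, had 0.19 ± 0.11 by its brightest probe and 0.12 by its other kept probe. KIF23 and KIF2C lay among neighbours of medians 0.12 and 0.20, and of those of KIF2C 18 rose and 0 fell. KIF22 lay among neighbours with a median of -0.11, of which 14 fell and 5 rose. For KIF20B that median was -0.10, with 12 lower and 3 higher, and for KIF4A it was -0.01. How far neighbours account for these values was not tested.

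**Figure D3:**
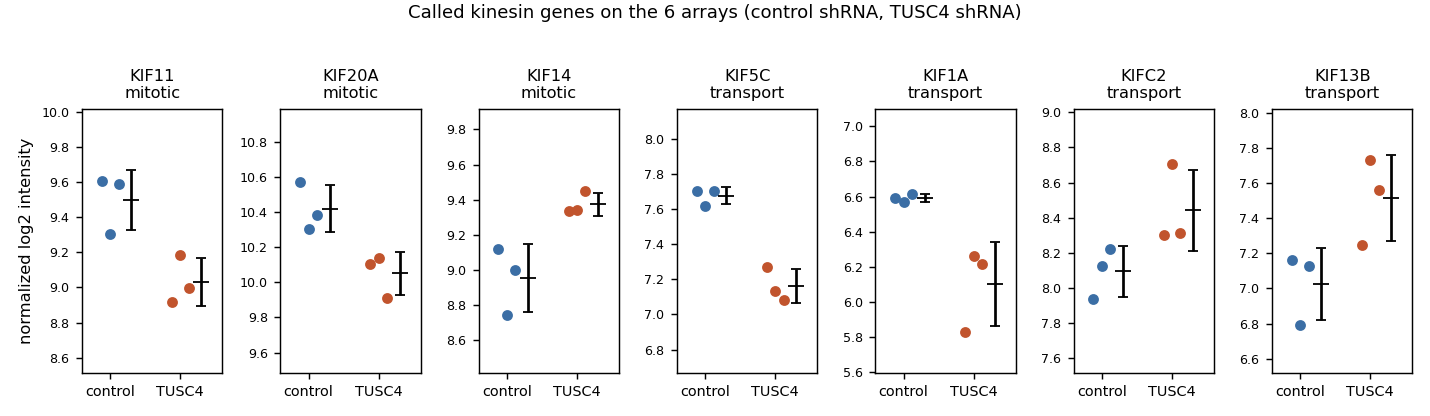
Normalized log2 intensity of the 7 kinesin genes past the threshold on each of the 3 control and 3 knockdown arrays, with the mean and SD beside the points; each panel spans the same range of 1.5. The groups do not overlap in any panel, and the knockdown sample of KIF1A at 5.83 stands lowest in its panel.

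KIF5C, a heavy chain of conventional kinesin known mainly from neurons, had log2 intensities of 7.70, 7.62 and 7.70 in the control samples and 7.27, 7.13 and 7.08 in the knockdown samples. The groups lay apart with little spread within either. KIF5C fell, with a log2 value of -0.51 ± 0.10 (SE, limma adjusted p = 0.000965), the smallest adjusted p among the kinesin genes in these settings. It stayed past the threshold in all 18 alternatives, with log2 values from -0.73 to -0.36. KIF5B, the conventional heavy chain of most tissues, had -0.18 ± 0.11 (limma adjusted p = 0.237) and passed as lower with median scaling and without normalization, where it reached -0.46.

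KIF1A, the carrier of synaptic vesicle precursors, had log2 intensities of 6.59, 6.57 and 6.61 in the control samples and 5.83, 6.26 and 6.22 in the knockdown samples. It was above background on all 3 control arrays and on 0 of the 3 knockdown arrays, so its fall is a bound, at least 1.21-fold lower at an offset of 50. Its probe met the background filter through the control arrays alone. The limma adjusted p of 0.00472 therefore sets measured values against values not above background. The fitted log2 value of -0.49 depends on the offset, with -0.88 at an offset of 16 and -0.27 with the authors' values. KIF1B, a relative that carries mitochondria and synaptic vesicle precursors, had 0.28 ± 0.12 (limma adjusted p = 0.104) by its brightest probe, while its other kept probes gave -0.04 and -0.08. KIF1C, a vesicle motor, had 0.00 ± 0.09.

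KIF13B, a vesicle motor also called GAKIN, had log2 intensities of 7.16, 6.79 and 7.13 in the control samples and 7.25, 7.73 and 7.56 in the knockdown samples. The groups were close but did not overlap, with a log2 fold change of 0.49 ± 0.13 (SE, limma adjusted p = 0.0111). Its signals before normalization overlapped, from 160 to 216 in the control and from 184 to 235 in the knockdown samples. The call was lost with median scaling (0.31, limma adjusted p = 0.137), without normalization (0.27, 0.228), without control replicate 2 (0.37, 0.0624) and without TUSC4 replicate 2 (0.38, 0.0637).

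KIFC2, a minus-end motor known from neurons, had log2 intensities of 7.94, 8.12 and 8.22 in the control samples and 8.30, 8.71 and 8.32 in the knockdown samples. The gap between the groups was small, and TUSC4 replicate 2 stood above the other knockdown samples. KIFC2 rose by 0.35 ± 0.12 on the log2 scale (SE, limma adjusted p = 0.0432). The call held in 10 of 18 alternatives and was lost with median scaling, without normalization, without background correction, with an offset of 16, with the authors' values, and without control replicate 1 (0.27), control replicate 2 (0.36) or TUSC4 replicate 2 (0.21). Its signals before normalization overlapped, from 330 to 359 in the control and from 327 to 387 in the knockdown samples.

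The heterotrimeric kinesin of intraflagellar transport was measured by KIF3A (0.07 ± 0.10) and KIF3B (-0.01 ± 0.10, with -0.20 by its other kept probe), and neither passed. KIF3C, the neuronal partner of KIF3A, had -0.24 ± 0.10 (limma adjusted p = 0.0781) and passed as lower with an offset of 16, with median scaling and without normalization. KIF16B, a motor of early endosomes, had -0.21 ± 0.10 (limma adjusted p = 0.122) by its brightest probe, with 3 knockdown samples all below the controls. Its other kept probe gave -0.14 with overlapping groups (limma adjusted p = 0.401 when every probe was tested). The 50 neighbours of KIF16B on chromosome 20 had a median of 0.14, where 13 rose and 2 fell. KIF21A, which restrains microtubule growth, had -0.07 ± 0.13. Among the cilia genes, KIF7, which regulates Hedgehog signalling at the cilium tip, had -0.03, KIF24, which restrains cilium assembly, 0.00, and KIF27 0.12. KIF2A had -0.18 ± 0.09 (limma adjusted p = 0.181) and passed as lower with median scaling and without normalization.

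**Figure D4:**
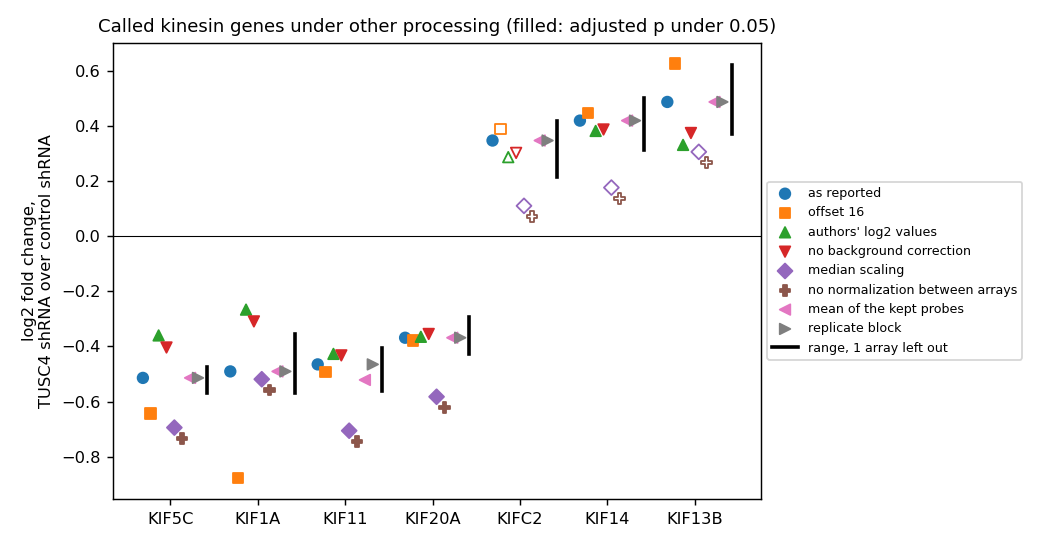
Log2 fold change of the 7 kinesin genes past the threshold under the reported settings and 7 others, filled where the adjusted p is under 0.05, with a bar for the range when 1 array is left out. The 4 genes that fell keep filled points throughout, though KIF1A among them was above background on no knockdown array. KIF14, KIF13B and KIFC2 have open points with median scaling and without normalization, KIFC2 also with an offset of 16, the authors' values and no background correction.

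Among genes that work with the mitotic kinesins, 7 of 25 measured partners fell and 0 rose. That is 28.0% called, close to the 26.9% of all genes, of which 13.6% fell and 13.3% rose. The median log2 fold change of the partners was -0.16, and -0.07 without TUSC4 replicate 3, with the same counts. ANLN, the cytokinetic ring scaffold, had -1.10 ± 0.12 (limma adjusted p = 9.23e-06) and the midbody gene CEP55 -0.71 ± 0.11 (0.000144). AURKB, the passenger kinase that KIF20A carries, had 9.78, 9.92 and 9.83 in the control samples and 9.07, 9.26 and 9.27 in the knockdown samples, a change of -0.64 ± 0.10 (limma adjusted p = 0.000211). PRC1, the microtubule bundler that KIF4A moves along the central spindle, had 11.55, 11.33 and 11.67 against 10.90, 10.86 and 10.57, a change of -0.74 ± 0.12 (limma adjusted p = 0.000242). The samples of the 2 groups did not overlap for AURKB or PRC1. With median scaling 14 of these 25 genes fell and the median was -0.38, where 22.6% of all genes fell and their median was -0.12.

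Other partners were chosen for their kinesin after their values were seen. BIRC5 (survivin), of the passenger complex, had -0.68, whereas its fellow subunits INCENP and CDCA8 had -0.18 and -0.11 and did not pass. RACGAP1, the other subunit of centralspindlin, had -0.40 ± 0.10 (limma adjusted p = 0.00840) beside 0.19 for KIF23, and ECT2, the exchange factor that centralspindlin recruits, -0.49 (0.00482). TPX2, which binds KIF11 and KIF15 at the spindle, had -0.16 (limma adjusted p = 0.308) and CIT, the citron kinase that binds KIF14, 0.01 (0.950). CENPE, a kinesin of kinetochores whose symbol lies outside the KIF pattern, had 0.02 (0.927).

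FOXM1, the transcription factor known to drive G2 and M phase genes, had log2 intensities of 9.92, 9.91 and 9.90 in the control samples and 9.02, 8.92 and 9.01 in the knockdown samples, a change of -0.93 ± 0.09 (limma adjusted p = 4.13e-06). Of 19 measured regulators of G2 and M transcription 4 rose and 3 fell (36.8%, against 26.9% of all genes), with a median of 0.02. The rises numbered 2 without control replicate 1 or without TUSC4 replicate 1. Median scaling gave 0 higher and 4 lower, beside 4.05% and 22.6% of all genes. RBL2, of the DREAM complex, rose by 0.53 and E2F2 by 0.42, both calls lost with median scaling and without normalization, that of E2F2 also without TUSC4 replicate 2, and the E2F partner TFDP1 had -0.50 among neighbours with a median of -0.40. Of 16 markers of cell cycle phase 1 rose and 1 fell (12.5% against 26.9% of all genes). MCM2, of the replication helicase, had -0.54 and the sliding clamp gene PCNA 0.30, a call lost in 7 alternatives. With 1 array left out 0 to 2 of the 16 rose and 1 to 2 fell, the 2 rises being without TUSC4 replicate 3 and the 2 falls without control replicate 2. With median scaling 7 fell and 0 rose, where 22.6% of all genes fell and 4.05% rose.

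Of 18 measured light chains and adaptors of the transport kinesins 4 rose and 1 fell. That is 27.8% called, close to the 26.9% of all genes, of which 13.3% rose and 13.6% fell. The median was 0.05, and 0.12 without control replicate 1 or without TUSC4 replicate 3. PLEKHM2, an adaptor between lysosomes and conventional kinesin, rose by 0.45, the microtubule-binding gene MAP7D1 by 0.54 and RHOT2, a mitochondrial GTPase of the motor complex, by 0.46. Those 3 calls were lost with median scaling and without normalization, after which 0 of the 18 were higher and 1 lower. Of all genes 4.05% rose and 22.6% fell with median scaling, and 2.51% rose and 23.0% fell without normalization. The light chain genes KLC1, KLC2, KLC3 and KLC4, chosen after their values were seen, lay between -0.02 and 0.04, and KIFAP3, the accessory subunit of KIF3A and KIF3B, had 0.22 (limma adjusted p = 0.169).

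Dynein, the motor that runs toward microtubule minus ends, and its activator dynactin had 3 genes higher and 6 lower of 25 (36%, against 26.9% of all genes), with a median of 0.03. That median was -0.02 without control replicate 2 and without TUSC4 replicate 3. It was -0.08 with the mean of the kept probes, where 4 rose and 7 fell. With 1 array left out 2 to 3 rose and 4 to 7 fell. Median scaling gave 1 higher and 11 lower, beside 4.05% and 22.6% of all genes. The light chain DYNLT3 had -0.98 ± 0.11, the intermediate chain DYNC1I2 -0.45 ± 0.10, the cargo adaptor BICD2 0.76 ± 0.13 and the dynactin subunit DCTN6 0.43 ± 0.10, the last of these calls being lost with median scaling and without normalization. Of 15 tubulin genes 1 rose and 6 fell (46.7%, against 26.9% of all genes). Their median was -0.19, and -0.11 without TUSC4 replicate 3. The falls numbered 4 with an offset of 16, and 4 to 5 with 1 array left out. Median scaling gave 1 higher and 8 lower, beside 4.05% and 22.6% of all genes. TUBB2B had -0.96 ± 0.11, TUBB4 -0.70 ± 0.10 and TUBA4A -0.65 ± 0.10, and TUBE1 rose by 0.55, a call lost without normalization. Tubulin genes are near-identical in parts, which leaves uncertain which copy a probe read.

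**Figure D5:**
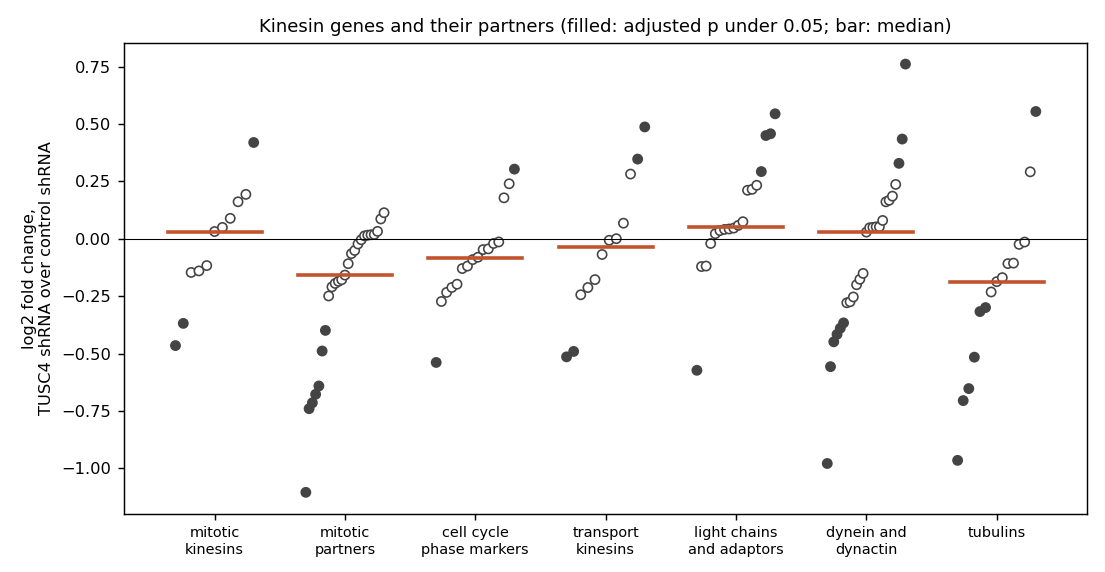
Log2 fold change of each tested gene of the mitotic kinesins, their partners, cell cycle phase markers, transport kinesins, their light chains and adaptors, dynein and dynactin, and tubulins, filled past the threshold, with a bar at the median. The mitotic partners have 7 filled points, all below 0, while the mitotic kinesins have 2 below and 1 above.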

How the data were processed

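RNA of 3 control shRNA and 3 TUSC4 shRNA samples was measured on bead arrays. The deposited signal of each probe is an intensity on a linear scale, unnormalized between arrays, per the file headers, and BeadStudio is named, without a version, in the submitters' processing notes. The authors' second table holds log2 values with the same distribution in all 6 columns, a median of 6.89, whose making the sources used here do not state. That table served as an alternative.

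Here the intensity was corrected with limma's normexp (offset 50), quantile normalized and taken to log2. The offset shrinks folds of dim probes. Without use of detection p-values or control probes, background was estimated on each array from the mode of log2 signal (bandwidth 0.05) and the spread below it, and a probe was kept if above it (one-sided p under 0.05) on at least 3 of 6 arrays, which left 20657 of 47231 probes. Between 20378 and 21485 probes per array lay above background, and 6 arrays limit the precision. Each of 15300 genes was represented by its brightest kept probe and tested with limma's lmFit and eBayes (version 3.58.1, R 4.3.3), without covariates, with Benjamini-Hochberg adjustment over all genes and a threshold of 0.05. The fit was tested on simulated data with independent normal noise. That simulation held no shift between arrays, so it does not bear on the choice of scaling. A positive fold change is higher with the TUSC4 shRNA. Neighbours are the 50 measured genes nearest on the chromosome in RefSeq. Where a group was above background on no array, the bound sets its mean, with each array at no less than its lowest value above background, against the other group's mean.

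Kinesin genes that passed the test have their values given in every sample, the others their fold changes, and up to 4 genes with the smallest p are named from each partner list. The members, role classes, lists and alternatives were chosen with earlier results of these data known. A comparison of proteins was planned and not made, as no protein sequences were used here. The values of 1 gene of the light chain and adaptor list are not reported here.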

Additional observations from a re-analysis of the deposited data

How the results depend on the processing

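The 18 alternatives changed background correction, offset, scaling, filter, probe rule, variance prior, array weights, the replicate block or left out 1 array, and the role classes were also changed by counting KIF2A as mitotic. The fall of TUSC4 kept its side of the threshold in all of them, from -1.46 to -1.07, and from -1.27 to -1.14 when 1 array was left out. The count of 7 kinesin genes was 10 with median scaling and without normalization, 6 without background correction, with the authors' values and with a filter on all 6 arrays, which removed KIF1A, and 4 to 7 when 1 array was left out, the 4 being without control replicate 2. The mitotic count of 3 became 5 with median scaling and 5 without normalization, and 2 to 3 with 1 array left out. The transport count of 4 was 2 to 4 with 1 array left out, the 2 being without control replicate 2 and without TUSC4 replicate 2. The count of all genes called, 4123 here, was 3033 to 4079 with 1 array left out, and that of the partner and marker genes 33 to 38. The mitotic median of 0.03 was -0.20 with median scaling, -0.24 without normalization and -0.10 to 0.12 with 1 array left out, the lowest without control replicate 1. The transport median of -0.04 was -0.27 with median scaling, -0.30 without normalization and -0.08 to 0.00 with 1 array left out. The difference of the medians, 0.07, was -0.0051 with KIF2A counted as mitotic, -0.0031 without the filter and -0.079 to 0.12 with 1 array left out, so its sign is not settled. Over the kinesin genes, 417 of the alternative values kept side and direction, 17 lost and 13 gained the call, and 37 values of genes that never passed changed sign. No call turned to the opposite direction. The cause of these changes was not tested.

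The replicate numbers are shared between the groups. Deviations of same-numbered samples correlated at 0.10, 0.05 and -0.10. Control replicate 2 and control replicate 3 did not correlate best with their own numbers, so the numbers were not treated as pairs. With the replicate block 7 kinesin genes passed, 3 mitotic and 4 transport, with a TUSC4 log2 fold change of -1.18, and it changed no call among the kinesin genes. The few arrays and the signals near background of KIF1A and KIF27 limit what can be measured of them.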
